A study of Mus musculus with 6 samples.

Results

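Skin resident macrophages were examined as single cells in scRNA-seq data of tdTomato+ cells sorted from mouse dorsal skin. A cell counted as a macrophage by its transcripts alone. It had 200 to 5000 detected genes, under 10% of its UMIs (unique transcript counts) on mitochondrial genes, and no *Pecam1* UMI unless it also had a *Ptprc* UMI. It further had UMIs of at least 2 of the 3 myeloid genes *Tyrobp*, *Fcer1g* and *Laptm5*, and of at least 4 of the 8 macrophage genes *C1qa*, *C1qb*, *C1qc*, *Pf4*, *F13a1*, *Folr2*, *Cd209f* and *Cbr2*. These rules found 1427 macrophages among 20941 kept cells, that is, cells within the limits on genes and mitochondrial UMIs, in 6 libraries of 1 mouse each.

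Each of the 3 groups held 2 mice, named S1 and S2. WT telogen mice (hair follicle rest, PD 20) and WT anagen mice (hair growth, PD 32) carried tdTomato, *Cdh5*-CreERT2 and *Krt14*-H2BGFP on a mixed background of C57BL/6 and CD1. Alk1 KO telogen mice (PD 25) carried Alk1 flox/flox, tdTomato and *Cdh5*-CreERT2 on C57BL/6. All groups, controls included, received tamoxifen at 200 µg/g on PD 17. The Cre was driven by *Cdh5* (VE-cadherin), a gene of endothelial cells that perineurial cells of skin nerves also express, so the label and the deletion were aimed at cells that express it. In the summed macrophages, *Xist*, the transcript of the inactive X chromosome, was at 789 CPM in WT telogen S1, 904 CPM in KO S1 and 820 CPM in KO S2, and at 0 UMIs in the other libraries. Those held the Y-linked *Ddx3y* at 85.0 CPM in WT telogen S2, 110 CPM in anagen S1 and 39.3 CPM in anagen S2. CPM is the abundance of a gene among the UMIs summed over all macrophages of a library, scaled to the same total in each library. Genotype cannot be told apart from age, time since tamoxifen, strain background and the *Krt14*-H2BGFP allele. It is confounded in part with sex chromosome content, which WT telogen S1 shares with the KO libraries. Stage cannot be told apart from age or time since tamoxifen. It too is confounded in part with sex chromosome content, since among the WT libraries only telogen S1 held *Xist*. One label field of the KO libraries also reads wild type, and these libraries were grouped by their titles.

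Tissue macrophages are long-lived phagocytes that clear dying cells and debris, sense damage through complement and scavenger receptors, and call in other leukocytes with chemokines. In the dermis many of them lie along blood vessels and nerves. Macrophages with *Lyve1*, *Folr2*, *Timd4* and *Cd163* are known as a perivascular type, whereas those with abundant MHC class II molecules present antigen to T cells and are replenished more from blood monocytes.

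The label was checked on genes that the rule did not use. *Csf1r*, the receptor for the survival factor of macrophages, was at 591 and 661 CPM in WT telogen S1 and S2, 733 and 559 CPM in anagen S1 and S2, and 779 and 567 CPM in KO S1 and S2. In all other kept cells together it was between 2.73 and 48.0 CPM. The genes with the largest ratio to the other kept cells, as a description of the chosen cells, were *Ccl8* (mean 3610 against 6.75 CPM), *Ms4a7* (483 against 2.30 CPM) and *Ccl12* (293 against 1.12 CPM). The complement receptors *C3ar1* (437 against 7.70 CPM) and *C5ar1* (474 against 8.48 CPM), the C-type lectin *Cd209g* (133 against 0.331 CPM) and the chemokine *Ccl24* (245 against 3.51 CPM) were also among the leading 15. All of these were higher in the macrophages of 6 of 6 libraries. *Saa3* and *Marco* stood in the same list, but 2830 CPM of *Saa3* and 873 CPM of *Marco* came from KO S1, and all 140 *Marco* UMIs there lay in 1 cell. After each cell was thinned to 3000 UMIs, *Mrc1*, the mannose receptor, was found in 1265 of 1334 macrophages (94.8%), in 43.6% of 1179 other myeloid cells and in 1.59% of 9301 endothelial cells. *Csf1r* was found in 79.0% of macrophages, 23.2% of other myeloid cells and 0.172% of endothelial cells. Median UMIs per cell before thinning were between 6893 and 15193.5 in macrophages and between 5129.5 and 6589 in endothelial cells.

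Genes of other cell types were also read in the macrophages. *Cd207*, the marker of Langerhans cells, had a UMI in 0 of 1334 macrophages after thinning, which allows a share of cells with a UMI of up to 0.225%, and in 6.36% of other myeloid cells. Before thinning it had a UMI in 1 of 356 and 4 of 880 macrophages of WT telogen S1 and S2, in 1 of 114 of anagen S1 and in none of the other libraries. *Cd209a*, a lectin that dendritic cells also make, was in 11.9% of thinned macrophages, 41.7% of other myeloid cells and 0.0538% of endothelial cells. *Ccr2*, the chemokine receptor of monocytes, was in 15.8%, 36.5% and 0.0323% of them. The dendritic cell genes *Xcr1*, *Clec9a* and *Ccr7* and the monocyte gene *Ly6c2* were at 0 UMIs in both anagen and both KO libraries. The 5 erythroid genes summed to 938.7 CPM in WT telogen S2, with *Hbb-bs* at 592.8 CPM, to 112 CPM in KO S1, and to between 0 and 12.8 CPM in the other libraries. The 10 fibroblast genes summed to 499 and 652 CPM in WT telogen S1 and S2, 305 and 240 CPM in anagen and 81.0 and 22.4 CPM in the KO. The 14 endothelial genes summed to 85.3 and 100.1 CPM in WT telogen, 637 and 407 CPM in anagen and 68.6 and 436 CPM in the KO. *Cdh5* was in 33 of 1334 thinned macrophages (2.47%) and in 80.1% of endothelial cells. *Col1a1*, a collagen of fibroblasts, was in 9.52% of macrophages and in 3.57% of endothelial cells. The 8 mast cell genes summed to 12.1 and 59.1 CPM in WT telogen S1 and S2, to 2.06 and 0 CPM in anagen, and to 0 and 3.20 CPM in the KO.

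Most members of the WT libraries lay well inside the rule. Without thinning, a UMI of 7 or all 8 macrophage genes was found in 77.0% and 80.9% of the macrophages of WT telogen S1 and S2, in 69.3% and 63.6% of those of anagen S1 and S2, and in 27.3% and 30.3% of those of KO S1 and S2. Depth differed by group as well. Median UMIs per macrophage were 15193.5 and 12898 in WT telogen, 7612.5 and 8764 in anagen, and 6893 and 9018 in the KO. The part of depth in these shares was not tested. Just inside the threshold, with exactly 4 genes, lay 23, 49, 5, 2, 3 and 3 cells in the libraries in this order. Just outside it, with 3 genes, lay 25, 76, 5, 1, 0 and 4 cells. *Folr2*, a folate receptor of perivascular macrophages, had a UMI, before thinning, in 77.5% and 85.0% of WT telogen, 82.5% and 68.2% of anagen and 18.2% of macrophages in each KO library. After thinning the shares were 69.0% and 72.9% in WT telogen, 76.4% in anagen S1 and 10 of 20 cells in anagen S2, and 12.5% and 13.3% in the KO. Between 2 and 13 barcodes were shared by any pair of libraries, and none of them marked a macrophage in both.

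Macrophages were a larger part of the WT telogen libraries than of the others. They were 356 of 3171 kept cells in WT telogen S1 (11.2%, 95% exact binomial interval 10.2 to 12.4) and 880 of 4692 in WT telogen S2 (18.8%, 17.7 to 19.9). They were 114 of 4301 in anagen S1 (2.65%, 2.19 to 3.18) and 22 of 5106 in anagen S2 (0.431%, 0.270 to 0.652). In the KO they were 22 of 1713 cells in S1 (1.28%, 0.807 to 1.94) and 33 of 1958 in S2 (1.69%, 1.16 to 2.36). Both WT telogen libraries lay above all others, and the KO libraries lay within the range of the anagen libraries. The mean was 14.99% ± 5.32 (SD, n = 2) in WT telogen, 1.54% ± 1.57 (SD, n = 2) in anagen and 1.49% ± 0.284 (SD, n = 2) in the KO. The exact two-sided permutation test gave p = 0.333 for each comparison with WT telogen, the smallest that 2 mice against 2 can give. The intervals cover counting error only.

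As a share of all cells that passed the myeloid part of the rule, the groups overlapped. Macrophages were 39.0% and 44.2% of the myeloid-gated cells in WT telogen S1 and S2, 42.7% and 25.3% in anagen, and 42.3% and 33.3% in the KO. The difference from WT telogen was −7.58 percentage points in anagen and −3.75 points in the KO (exact permutation p = 0.667 for each). Sorting by tdTomato sets which cells enter a library, and its part in these shares was not tested.

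**Figure D1:**
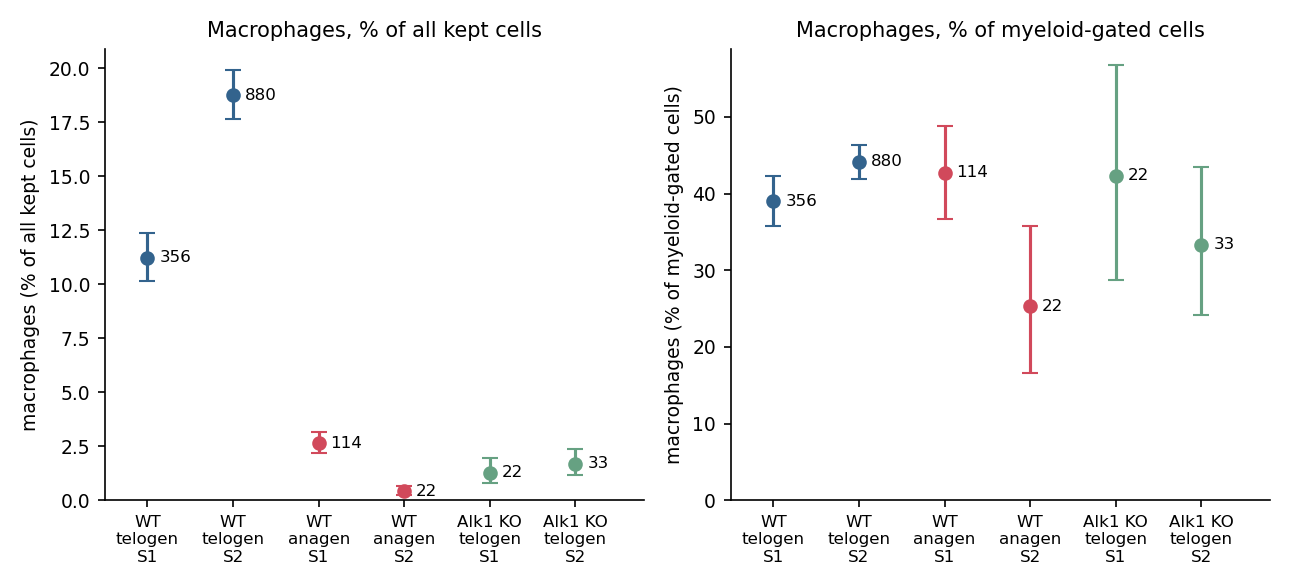
Share of macrophages among all kept cells (left, %) and among myeloid-gated cells (right, %) in each library; points are libraries, bars 95% exact binomial intervals and numbers the counted macrophages. Both WT telogen libraries (11.2% and 18.8%) lie above the other four (0.431% to 2.65%) on the left, while the libraries overlap on the right.

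Within a library the macrophages were far from uniform in MHC class II transcripts. The sum of *H2-Aa*, *H2-Ab1*, *H2-Eb1* and *Cd74*, the chains of the class II molecules and their chaperone, was counted per cell after thinning to 3000 UMIs. In WT telogen S1 the median was 2 UMIs, with a 10th percentile of 0 and a 90th of 113. In WT telogen S2 the median was 1 and the 90th percentile 96.4. In anagen the medians were 65 and 109, and in the KO they were 0 in both libraries. Cells with 15 or more of these UMIs were 31.9% and 25.7% of WT telogen, 82.1% and 70.0% of anagen and 12.5% and 16.7% of KO macrophages. Between 0% and 5.0% of the cells of a library had 12 to 17 UMIs, near that limit.

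**Figure D2:**
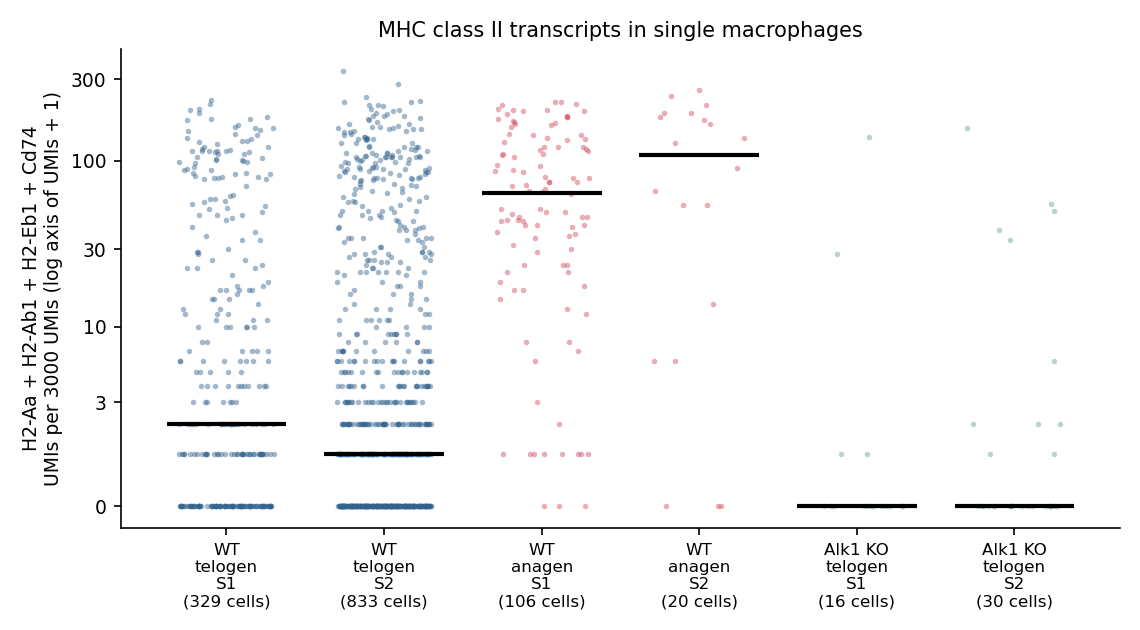
MHC class II UMIs of single macrophages after thinning to 3000 UMIs (y axis, log scale of UMIs + 1) in each library (x axis); points are cells and black bars medians. The medians are 2 and 1 in WT telogen, 65 and 109 in WT anagen, and 0 and 0 in Alk1 KO telogen, and cells with over 100 such UMIs occur in every library.

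The MHC class II sum went against the perivascular genes across cells. Spearman's rho between it and the sum of 19 perivascular genes (without *Lyve1*) was −0.58 over 329 cells and −0.48 over 833 cells of WT telogen S1 and S2. It was −0.46 over 106 and −0.74 over 20 cells in anagen, and −0.29 over 16 and −0.37 over 30 cells in the KO. These values describe cells of shared libraries, whose UMIs are parts of 1 fixed total.

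WT telogen macrophages with a *Lyve1* UMI after thinning (75 and 270 cells) were set against those without, and the genes given here were picked for a difference of the same sign in both mice. *Timd4*, a receptor for dying cells, was at 107 and 133 CPM with *Lyve1* and at 28.9 and 38.5 CPM without. *Folr2*, which also served to choose the cells, was at 1124 and 1301 CPM against 512 and 577 CPM. The lectin *Fcna*, *Ltc4s* of leukotriene synthesis and the endothelin receptor *Ednrb* were higher in the *Lyve1*+ cells of both libraries as well, with log2 ratios of CPM + 10 that reached 2.30 for *Fcna*. In the other direction, *Il1b*, the inflammatory cytokine, was at 17.8 CPM with *Lyve1* and at 1087 CPM without in WT telogen S1, and lower by a log2 ratio of −3.05 in S2. *H2-Aa* was at 204 and 412 CPM against 2199 and 2261 CPM. *Lyz1*, *Ptgs2*, *Thbs1* and *Fn1* were lower with *Lyve1* in both libraries too. The level of *Lyve1* itself over all macrophages was 177 and 242 CPM in WT telogen, 141 and 78.5 CPM in anagen and 131 and 259 CPM in the KO, where 60 of the 81 UMIs of S2 lay in 1 cell.

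Cells with UMIs of at least 2 of 12 genes of the S and G2/M phases were 51 of 329 (15.5%) and 105 of 833 (12.6%) of the thinned WT telogen macrophages. They were 0 of 106 in anagen S1, which allows a share of up to 2.83%, and 1 of 20 in anagen S2. In the KO they were 0 of 16 and 0 of 30, which allows up to 18.8% and 10.0%. Within WT telogen S1 and S2 the share was 14.6% and 13.3% in other myeloid cells and 3.06% and 4.28% in endothelial cells.

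The hair cycle comparison asked how macrophages of growing skin differ from those of resting skin. *Il6*, 6 of 13 MHC class II genes and 7 of 20 chemokines were higher in anagen macrophages, whereas 7 of 24 cell cycle genes and the scavenger receptors *Cd163*, *Msr1* and *Marco* were lower. UMIs were summed over the macrophages of each library and tested with edgeR's quasi-likelihood test, with Benjamini-Hochberg adjustment over 9651 genes. A gene was called at an adjusted p under 0.05 with over 1.3-fold change. Of the 9651 genes, 294 (3.05%) were called, 238 higher (2.47%) and 56 lower (0.58%) in anagen. The median log2 fold change of all tested genes was −0.04. Of the 294 genes, 287 had libraries that did not overlap between the groups, as had 55.2% of all genes tested. The p-values measure the spread between 2 mice per group. The summed depth was 5228175 and 11297642 UMIs in WT telogen S1 and S2, 969640 and 203812 in anagen S1 and S2, and anagen S2 held only 22 cells. Without telogen S1 107 genes were called (82 higher and 25 lower), now among libraries with *Ddx3y* only, and without telogen S2 126 were. With anagen S1 or anagen S2 left out, the calls split far more evenly between higher and lower. The median log2 fold change of all tested genes was −0.27 without anagen S1 and −0.06 without anagen S2.

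Of 13 tested genes of the MHC class II list (15 in all), 6 rose and none fell, with a median log2 fold change of 1.86. *H2-Aa*, the alpha chain of I-A, was at 1641 and 1659 CPM in WT telogen S1 and S2 and at 6693 and 7271 CPM in anagen S1 and S2. The libraries lay far apart by stage (log2 fold change 2.28 ± 0.22 SE, adjusted p = 0.00377). *H2-Ab1*, its beta chain, was at 1513 and 1418 CPM in telogen and at 5768 and 6638 CPM in anagen (2.28 ± 0.22, adjusted p = 0.00406). *Cd74*, the invariant chain, was at 4565 and 3574 CPM in telogen and at 15070 and 19850 CPM in anagen (2.30 ± 0.25, adjusted p = 0.00517). The others called were *H2-Eb1* (2.05), *H2-DMb1* (2.05) and *H2-DMa* (1.53), of which the last 2 load peptides onto class II molecules. The share of thinned macrophages with an *H2-Aa* UMI was 45.6% and 40.3% in telogen and 84.0% and 80.0% in anagen, against 2.62% in endothelial cells. With macrophages that held a UMI of *Cdh5*, *Pecam1*, *Krt14*, *Col1a1* or *Cma1* left out, 4 genes of the list were called with a median of 1.40. Without telogen S2, 4 were called as well, and with the libraries at the same number of cells and UMIs, 1 of 9 was.

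The difference at anagen was larger in macrophages than in other myeloid cells for 5 genes of this list. Other myeloid cells passed the same gates with at most 1 of the 8 macrophage genes. *H2-Aa* was at 9981 and 10030 CPM in these cells of telogen S1 and S2 and at 13550 and 14890 CPM in those of anagen. The interaction, fitted in edgeR's quasi-likelihood test with the library as a block, was 1.49 ± 0.21 on the log2 scale (adjusted p = 0.00619). The interaction was 1.55 for *H2-Ab1*, 1.41 for *H2-Eb1*, 1.40 for *Cd74* and 1.37 for *H2-DMb1*, all called. Of 11012 genes tested, 0.663% were called, 0.472% with the higher value in macrophages and 0.191% with the lower. With anagen S2 left out, a fit with a lone anagen library, most calls had the lower value instead.

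The promoters of 3 of these genes are shown because their class II genes moved together and because MHC class II promoters are known to carry the Y box, an inverted CCAAT element. The sequences are RefSeq's (build GRCm38.p6), 250 bases that end at the start of the gene, 5′ to 3′ on the strand of the gene, with the letters TGATTGG in capitals. They lie at chr17:34287824-34288073 on the minus strand (*H2-Aa*), chr17:34305617-34305866 on the plus strand (*H2-Eb1*) and chr17:34152941-34153190 on the plus strand (*H2-DMb1*).
H2-Aa: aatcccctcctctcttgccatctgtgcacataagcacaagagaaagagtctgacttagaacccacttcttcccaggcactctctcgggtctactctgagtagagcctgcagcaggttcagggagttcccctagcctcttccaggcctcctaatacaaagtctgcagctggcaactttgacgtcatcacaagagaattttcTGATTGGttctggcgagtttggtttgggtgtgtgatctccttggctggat
H2-Eb1: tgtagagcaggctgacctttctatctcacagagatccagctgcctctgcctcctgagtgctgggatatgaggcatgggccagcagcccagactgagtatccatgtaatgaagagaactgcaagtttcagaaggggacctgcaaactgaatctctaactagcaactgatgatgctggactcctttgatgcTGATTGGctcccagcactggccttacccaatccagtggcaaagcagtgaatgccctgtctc
H2-DMb1: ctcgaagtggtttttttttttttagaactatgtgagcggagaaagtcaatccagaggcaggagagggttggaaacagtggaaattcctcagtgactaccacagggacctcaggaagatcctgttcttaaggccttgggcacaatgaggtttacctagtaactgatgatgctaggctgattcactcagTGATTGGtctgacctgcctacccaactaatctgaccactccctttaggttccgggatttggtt
The capitals begin 50, 61 and 63 bases before the start. TGATTGG was searched on both strands and overlaps the reverse complement of CCAAT. It was found in 6 of the 10 promoters of the list with an entry and in 7.23% of 32851 promoters of this length. Of these 6, *H2-DMb2*, *H2-Oa* and *H2-Ob* were not among the called genes, while the called *H2-DMa* had an entry without TGATTGG. The cell cycle list held it as well, in 10 of 22 promoters. A match is a run of letters and not a measured binding site. *H2-Ab1* had no entry.

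Chemokines rose in part. Of 20 tested chemokines (24 in all), 7 rose and none fell, with a median log2 fold change of 1.20. *Ccl8*, which attracts monocytes and lymphocytes, was at 3298 and 2922 CPM in telogen and at 5571 and 8832 CPM in anagen (1.41, adjusted p = 0.0339). *Cxcl2*, which attracts neutrophils, was at 8168 and 9977 CPM in telogen and at 21350 and 22120 CPM in anagen (1.46, adjusted p = 0.0173). The interferon-induced *Cxcl10* was at 94.1 and 66.7 CPM in telogen and at 203 and 265 CPM in anagen (1.72, adjusted p = 0.0213). The anagen libraries were above the telogen libraries for all of these. *Cxcl16*, *Ccl3* and *Ppbp* also rose, with 20 of 22 *Ppbp* UMIs of anagen S1 and 3 of 3 of anagen S2 in 1 cell each. So did *Cxcl12*, which was 19.2 times as high in endothelial cells as in macrophages. With the cells that held UMIs of other cell types left out, 3 chemokines were called. Without telogen S1, 3 were called, and without telogen S2, 1 was.

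*Il6*, a cytokine of acute inflammation, was at 22.95 and 31.4 CPM in telogen and at 256 and 461 CPM in anagen (log2 fold change 3.86 ± 0.34 SE, adjusted p = 0.00265). In anagen S1 its UMIs lay in 54 cells, but in anagen S2 in 4 cells, 1 of which held 86 of 94. *Il1b* was at 718 and 646 CPM in telogen and at 1124 and 1335 CPM in anagen (1.05, adjusted p = 0.0496) and lost its call in 10 of 17 other settings. These were the 2 called of 14 cytokines tested (median 0.42).

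*Retnla*, a secreted protein of alternatively activated macrophages, had the largest rise among the called genes that were lower in endothelial cells than in macrophages. It was at 720 and 709 CPM in telogen, 19780 CPM in anagen S1 and 3125 CPM in anagen S2 (4.23 ± 0.74, adjusted p = 0.0276). Both anagen libraries were above both telogen libraries, and they differed from each other by more than the telogen libraries did. A *Retnla* UMI was found in 17.6% and 16.6% of thinned telogen macrophages and in 61.3% (65 of 106) and 6 of 20 anagen macrophages, against 1.04% of endothelial cells. In anagen S2 the UMIs lay in 7 cells, 1 of which held 390 of 637. *Ear2*, an eosinophil-type ribonuclease, was at 11.9 and 26.9 CPM in telogen and at 145 and 93.2 CPM in anagen (2.89, adjusted p = 0.00973). *Cd209a*, a lectin shared with dendritic cells, was at 62.4 and 43.9 CPM in telogen and at 230 and 93.2 CPM in anagen (1.96, adjusted p = 0.0362). Of the 13 genes of alternative activation tested, these 3 rose and *Cd163* fell. *Retnla* lost its call where cells with UMIs of other types were left out.

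Among 15 identity genes outside the rule, *Apoe*, *Lyz2* and *Cd14* rose at anagen and none fell (median 0.16). *Apoe*, which carries lipids out of macrophages, was at 3961 and 4996 CPM in telogen and at 10980 and 13990 CPM in anagen (1.68 ± 0.24, adjusted p = 0.0132). *Lyz2*, the lysozyme of myeloid cells, was at 5217 and 5010 CPM in telogen and at 8292 and 11130 CPM in anagen (1.12, adjusted p = 0.0413). *Ccr2*, the chemokine receptor of monocytes, was at 101 and 75.1 CPM in telogen and at 189 and 172 CPM in anagen (1.26, adjusted p = 0.041). *Apoe* lost its call without telogen S1, and *Lyz2* and *Ccr2* lost theirs without telogen S1 and again without telogen S2. Dendritic cell genes summed to 78.2 and 70.6 CPM in telogen and to 264 and 103 CPM in anagen, mostly *Cd209a*. Monocyte genes summed to 159 and 211 CPM in telogen and to 358 and 270 CPM in anagen, with *Ccr2* and *Ear2* the 2 of 7 tested that rose. The median log2 fold change of the 7 was −1.92, and 5 and 7 of the 10 genes were at 0 UMIs in anagen S1 and S2. Their part in the result was not tested. Of 26 receptor genes tested, *Cxcr4*, *Il10ra*, *Csf2ra* and *Cd14* rose along with *Ccr2* (median 0.45). Of 16 immediate-early transcription factors, *Nr4a2*, *Klf2*, *Fos* and *Fosb* rose (median 1.04), and none of them was called without telogen S1 or without telogen S2.

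**Figure D3:**
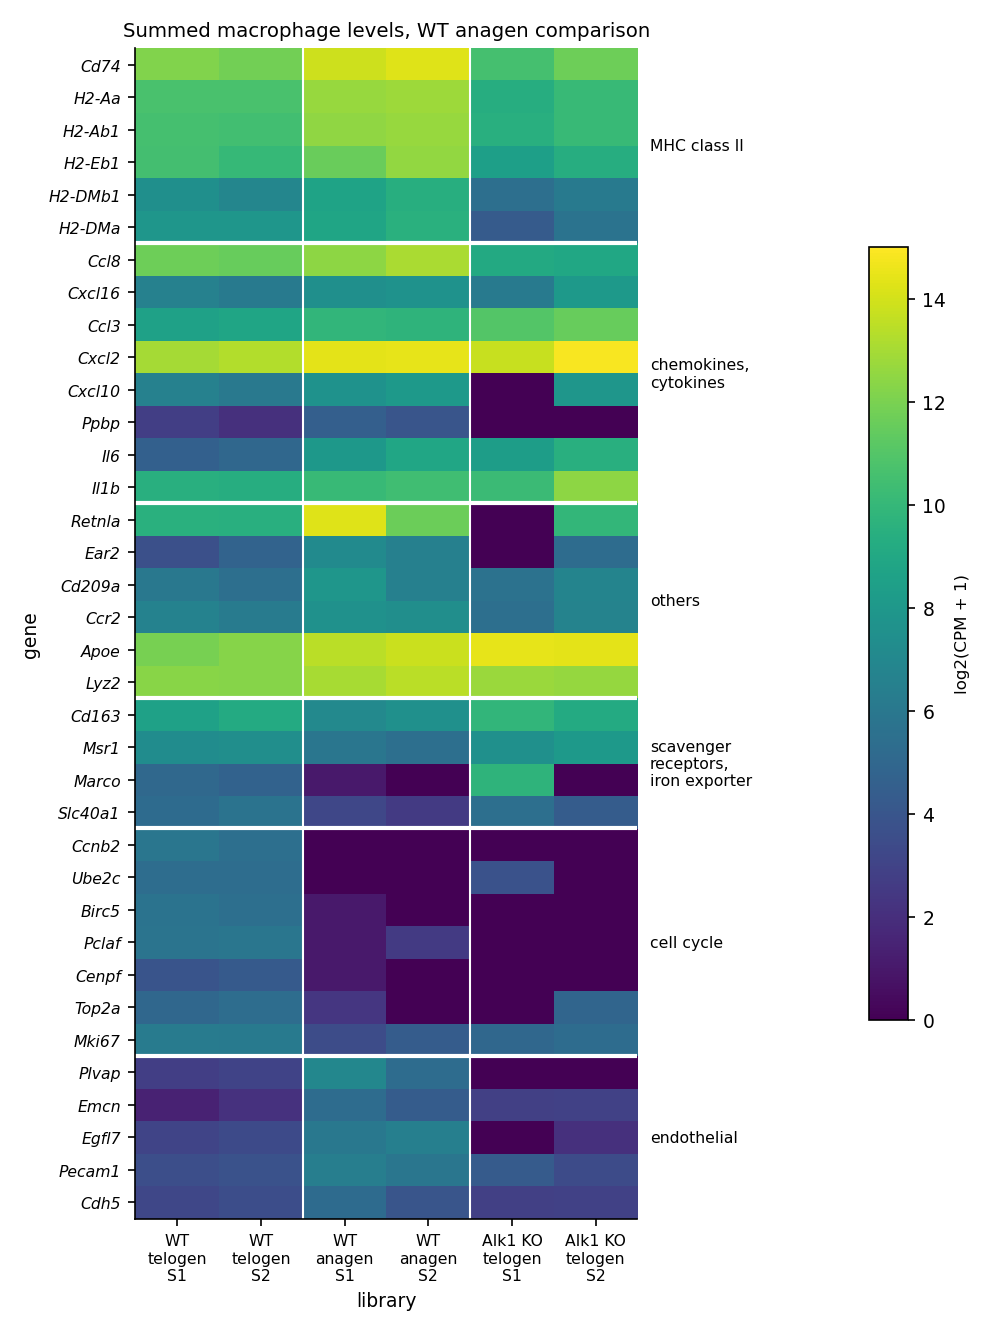
Levels of genes called between WT anagen and WT telogen macrophages (rows, grouped by list) in each library (columns), as log2(CPM + 1) of summed UMIs. MHC class II rows are brighter in anagen (*H2-Aa*, 6693 and 7271 CPM) than in telogen (1641 and 1659 CPM), and cell cycle rows are darker.

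Scavenger and perivascular genes were lower where they were called. *Cd163*, the receptor for haptoglobin with haemoglobin, was at 387 and 579 CPM in telogen and at 134 and 181.5 CPM in anagen (−1.45 ± 0.30, adjusted p = 0.0429). *Msr1*, which takes up modified lipoproteins, was at 159 and 167 CPM in telogen and at 57.8 and 44.2 CPM in anagen (−1.39, adjusted p = 0.0339). *Marco*, a receptor for particles and bacteria, was at 32.9 and 24.9 CPM in telogen, with 1 UMI in anagen S1 and none in S2, a ratio of 32.2 (95% counting interval 5.74 to 1273). The iron exporter *Slc40a1* fell by 2.33 on the log2 scale (adjusted p = 0.0325). Of 20 scavenger genes tested, 3 fell and none rose (median −0.01), and of 20 perivascular genes, *Slc40a1* and *Cd163* fell and none rose (median −0.34). *Mrc1*, at 2027 and 2212 CPM in telogen and 1529 and 1236 CPM in anagen, was not called. *Cd163* lost its call in 10 of 17 other settings, among them without telogen S1, without telogen S2 and without anagen S1. For *Cd163* the change was also lower in macrophages than in other myeloid cells (interaction −1.64, adjusted p = 0.0168 in edgeR's quasi-likelihood test).

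Of 24 cell cycle genes, 7 fell at anagen and none rose. The median log2 fold change was −3.02, and −2.00 with genes at 0 UMIs set at their bound. *Ccnb2*, the cyclin of mitosis, was at 58.3 and 43.5 CPM in telogen and at 0 UMIs in both anagen libraries. Taking 3 UMIs over the 2 libraries as the floor, it was at least 18.8-fold lower (adjusted p = 0.00973). *Ube2c*, a ubiquitin-conjugating enzyme of mitotic exit, was at 40.6 and 40.8 CPM in telogen and at 0 UMIs in anagen, at least 15.9-fold lower (adjusted p = 0.00688). *Birc5*, the survivin of dividing cells, had 1 UMI in anagen against 51.8 and 44.4 CPM in telogen (ratio 54.8, counting interval 9.81 to 2168). *Pclaf*, a PCNA-binding factor, had 2 UMIs in anagen against 53.9 and 57.5 CPM in telogen (ratio 33.1, 9.12 to 273). *Cenpf*, *Top2a* and *Mki67* fell as well. The same list had 5 called genes without cells with UMIs of other types, and 3 without anagen S1. The decrease was larger than in other myeloid cells for *Ccnb2*, *Ube2c* and *Birc5* (interaction called at adjusted p between 0.0383 and 0.0428).

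The promoters of *Ccnb2* and *Ube2c* are shown for the CCAAT boxes that promoters of mitotic genes are known for. They are given as above, with CCAAT and its reverse complement ATTGG in capitals, from chr9:70421555-70421804 on the minus strand (*Ccnb2*) and chr2:164769679-164769928 on the plus strand (*Ube2c*).
Ccnb2: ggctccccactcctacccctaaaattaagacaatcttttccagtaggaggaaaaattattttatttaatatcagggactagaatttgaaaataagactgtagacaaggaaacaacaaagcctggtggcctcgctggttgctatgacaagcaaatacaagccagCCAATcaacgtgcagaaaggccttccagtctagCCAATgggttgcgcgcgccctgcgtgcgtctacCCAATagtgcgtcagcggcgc
Ube2c: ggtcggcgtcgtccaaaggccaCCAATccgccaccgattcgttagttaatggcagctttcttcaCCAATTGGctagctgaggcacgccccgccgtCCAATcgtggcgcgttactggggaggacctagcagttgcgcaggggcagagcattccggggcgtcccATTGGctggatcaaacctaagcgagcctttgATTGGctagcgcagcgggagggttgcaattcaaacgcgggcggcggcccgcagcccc
The *Ccnb2* promoter held 3 such motifs, 87, 54 and 21 bases before the start, and the *Ube2c* promoter held 6, a pair of which overlap. At least 3 were found in 2.79% of 32851 promoters and at least 1 in 33.8%. Of the 22 cell cycle genes with an entry, 18 held at least 1.

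Transcripts of genes that mark other cell types differed by stage in the macrophages, and their source was not tested. Of 14 endothelial marker genes, 11 were called higher in anagen macrophages (median 2.71), and of the 238 genes that rose, 85 were at least 4 times as high in endothelial cells as in macrophages. Among the 12 largest rises with libraries that did not overlap, *Sema7a*, *Dll4*, *Sox17*, *Palmd*, *Sept4*, *Plvap*, *Clu*, *Spry4* and *Grrp1* were such genes. The endothelial list summed to 85.3 and 100.1 CPM in macrophages of telogen S1 and S2, 637 and 407 CPM in those of anagen, and 9062 to 10410 CPM in endothelial cells. *Plvap* was at 5.93 and 7.08 CPM in telogen and at 122 and 39.3 CPM in anagen. Endothelial cells were 1046 and 1019 cells in the telogen and 3090 and 3582 in the anagen libraries. Of 22 macrophages of anagen S2, 10 had doublet scores in the top 5% of their library. With cells that held *Cdh5*, *Pecam1*, *Krt14*, *Col1a1* or *Cma1* UMIs left out, 48 genes were called in all, 43 of them higher. That filter removes endothelial transcripts by its own rule, so its effect on the endothelial list is no check. With all genes at least 4 times as high in endothelial cells set aside, 195 were called. Fibroblast genes went the other way, with 4 of 8 lower (median −2.87). They summed to 499 and 652 CPM in telogen and to 305 and 240 CPM in anagen, where the sums were mostly *Sparc*, at 256 and 181.5 CPM there and at 111 and 141 CPM in telogen. *Il6* was 3.37 times as high in endothelial cells as in macrophages, whereas *Retnla* and the 6 called MHC class II genes were lower there than in macrophages.

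The remaining lists had between 0 and 8 called genes each at anagen, beside 3.05% called over all genes. None of 16 MHC class I genes and none of 12 heat shock genes was called, *Isg15* and *Ifi209* were the 2 called of 26 interferon-response genes (median −0.18), and *Ctsh* was the only call among 30 lysosomal genes (median −0.10). Of 17 complement genes, *Cd55*, which protects cells from complement, fell (−2.83, adjusted p = 0.0346). Of 90 genes of oxidative phosphorylation, *Ndufa10* fell (median −0.29). Of 81 ribosomal protein genes, 8 rose (median 0.27), and 0 of them without cells with UMIs of other types. *Bmp2* and *Vegfa* rose among 16 growth factors (median 0.76), with all anagen *Bmp2* UMIs in S1. *Btg2*, *Ier2* and *Nfkbid* rose among 26 genes of NF-kB feedback (median 0.65), *Id1* and *Skil* among 21 of the TGF-beta and BMP pathway (median 0.61), and *Bhlhe40* among 14 of the circadian clock (median 0.92). *C1qa*, *C1qb* and *C1qc*, which chose the cells, were between 1798 and 4323 CPM in all 4 WT libraries.

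The genotype comparison asked how macrophages of skin with Alk1 deleted in cells that express *Cdh5* differ from WT telogen macrophages. *Il6*, *Ccl3*, *Apoe* and 8 of 16 immediate-early genes were higher in the KO, whereas *Ccl8*, *Ccl2*, 5 of 20 perivascular genes and 45 of 89 genes of oxidative phosphorylation were lower. Against the same WT telogen libraries, *Il6*, *Ccl3*, *Apoe*, *Fos*, *Fosb* and *Nr4a2* were also called higher at anagen. *Ccl8* was called higher there, and *Jun*, *Egr1*, *Klf4*, *Klf6* and *Fosl2* were not called at anagen. *Acvrl1*, which encodes Alk1, was at 30.2 and 27.9 CPM in macrophages of WT telogen S1 and S2, 32.0 and 68.7 CPM in anagen, and 1 UMI in each KO library (6.23 and 3.20 CPM). The ratio of WT telogen to KO was 6.76 (95% counting interval 1.86 to 56.0), called by edgeR at adjusted p = 0.0375 but in only 7 of 14 other settings. In endothelial cells, where the Cre is active, it was at 154 and 131 CPM in WT telogen and at 129 and 104 CPM in the KO. The 3′ tags that were counted need not lie in the deleted part, so these levels check nothing about the deletion.

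Of 9394 genes tested, 1024 (10.9%) were called, 420 higher (4.47%) and 604 lower (6.43%) in the KO, so that 41.0% of the calls were higher. With DESeq2, 52.9% of 1426 calls were higher. The median log2 fold change of all genes was −0.16. Of the 1024 genes, 1021 had libraries that did not overlap, as had 61.4% of all genes tested. The KO sums held 160432 and 312247 UMIs from 22 and 33 cells, and 28 of the genes that fell had 0 UMIs in both KO libraries. This comparison shares its WT telogen libraries with the hair cycle comparison. Against WT telogen S1 alone, the control library with *Xist* like the KO, 233 genes were called, 103 higher and 130 lower. In such a fit the lone control library is assumed to vary like the other group. Without WT telogen S1 124 were called, and without KO S1 1888.

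Of 16 immediate-early transcription factors, 8 rose and none fell (median 1.13). *Jun* was at 203 and 249 CPM in WT telogen and at 3310 and 801 CPM in KO S1 and S2 (log2 fold change 3.16 ± 0.54 SE, adjusted p = 0.0126). *Fos*, its partner in AP-1, was at 313 and 350 CPM in WT telogen and at 3927 and 958 CPM in the KO (2.86 ± 0.52, adjusted p = 0.0155). *Egr1* was at 205 and 262 CPM in WT telogen and at 1128 and 762 CPM in the KO (2.03, adjusted p = 0.00477). KO S1 was the highest library for all 3, and KO S2 was above both WT telogen libraries. The KO UMIs were carried by few cells. For *Fos*, 354 of 630 UMIs of KO S1 and 99 of 299 of KO S2 lay in 1 cell. For *Jun*, 191 of 531 UMIs of KO S1 and 136 of 250 of KO S2 did, and for *Egr1*, 63 of 181 and 114 of 238. *Klf4* (1.91), *Fosb* (1.85), *Klf6* (1.20), *Fosl2* (1.19) and *Nr4a2* (1.06) were also called. Of 26 genes of NF-kB feedback, *Ier2*, *Dusp1*, *Nfkbiz*, *Icam1* and *Ier3* rose (median 0.80). *Dusp1*, a phosphatase that turns off MAP kinases, was at 654 and 750 CPM in WT telogen and at 3422 and 2299 CPM in the KO (2.04, adjusted p = 0.00374). Without WT telogen S1, 2 immediate-early and 1 NF-kB gene were called, and without WT telogen S2, 5 and 2 were.

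Of 14 cytokines tested, 4 rose and 1 fell. *Il6* was at 22.95 and 31.4 CPM in WT telogen and at 324 and 708 CPM in the KO, in 7 and 20 cells (4.32 ± 0.41, adjusted p = 0.0024), with 32 of 52 UMIs of KO S1 in 1 cell. *Il1b* was at 718 and 646 CPM in WT telogen, 1172 CPM in KO S1 and 5508 CPM in KO S2 (2.37, adjusted p = 0.045), and 120 of 188 UMIs of KO S1 lay in 1 cell. *Il1a* and *Osm*, a cytokine of the IL-6 family, rose too, and *Il18* fell by 2.02 on the log2 scale (adjusted p = 0.0263). Without WT telogen S1 1 cytokine was called, and without WT telogen S2 1 was.

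Chemokines split by gene. Of 19 tested (median 0.00), 2 rose and 3 fell, not counting *Pf4*, which was used to choose the cells. *Ccl3* was at 383 and 446 CPM in WT telogen and at 2032 and 2911 CPM in the KO (2.62 ± 0.26, adjusted p = 0.00285). *Ccl8* was at 3298 and 2922 CPM in WT telogen and at 542 and 496 CPM in the KO (−2.56 ± 0.19, adjusted p = 0.00127). After thinning it had a UMI in 202 of 329 (61.4%) and 488 of 833 (58.6%) macrophages of WT telogen S1 and S2, and in 2 of 16 and 11 of 30 of KO S1 and S2, against 0.86% of endothelial cells. *Ccl2*, the main attractant of monocytes, was at 7052 and 5788 CPM in WT telogen and at 2562 and 3107 CPM in the KO (−1.15 ± 0.20, adjusted p = 0.0143). *Ccl7* fell by 1.14 on the log2 scale. *Cxcl13*, which guides B cells, rose by 6.79 on the log2 scale, the most of the called genes with libraries that did not overlap, but its UMIs lay in 2 cells of each KO library, and 96 of 133 in KO S2 in 1 cell.

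Of 22 genes of lipid handling, 3 rose and 2 fell. *Apoe* was at 3961 and 4996 CPM in WT telogen and at 22570 and 21570 CPM in the KO (2.33 ± 0.17, adjusted p = 0.00127). *Abca1*, the cholesterol exporter, was at 293 and 289 CPM in WT telogen and at 736 and 993 CPM in the KO (1.61, adjusted p = 0.00876). *Mylip*, which degrades the LDL receptor, rose by 1.85 on the log2 scale. *Lpl*, the lipoprotein lipase, was at 197 and 124 CPM in WT telogen and at 49.9 and 19.2 CPM in the KO (−2.37, adjusted p = 0.017), and *Plin2*, the coat of lipid droplets, fell by 1.26. *Apoe* kept its call in 16 of 17 other settings, all except equal cells and depth. *Apoc1*, a neighbour of *Apoe*, was at 1.72 and 1.06 CPM in WT telogen and at 43.6 and 38.4 CPM in the KO, in 3 and 6 cells (4.97, adjusted p = 0.00374).

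*Hmox1*, the haem oxygenase, was at 2360 and 2427 CPM in WT telogen and at 3777 and 4756 CPM in the KO (0.87, adjusted p = 0.0328). *Blvra* and *Blvrb*, the biliverdin reductases that act after *Hmox1*, fell by 1.80 and 1.14 on the log2 scale. Of the 15 iron and haem genes tested, *Fth1* was also called higher and *Ncoa4* lower (median 0.12), beside 10.9% called over all genes. *C4b*, a component of the classical complement pathway, was at 85.1 and 80.8 CPM in WT telogen and at 237 and 195 CPM in the KO (1.39, adjusted p = 0.00731). Properdin (*Cfp*) was at 417 and 514 CPM in WT telogen and at 168 and 160 CPM in the KO (−1.48, adjusted p = 0.0106), and *Cfb* fell by 1.13. Of 17 complement genes tested, *Cfp*, *Cfb* and *Itgam* fell, not counting the genes of the rule.

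Several of the 12 largest rises among called genes with libraries that did not overlap were carried by few cells or by small counts. *Jaml*, an adhesion molecule of leukocytes, was at 3.83 and 7.61 CPM in WT telogen and at 156 and 119 CPM in the KO (4.47 ± 0.39, adjusted p = 0.0018), in 6 of 22 and 14 of 33 cells. *Gpx3*, a secreted glutathione peroxidase, was at 6.12 and 12.3 CPM in WT telogen and at 156 and 195 CPM in the KO (4.24 ± 0.37, adjusted p = 0.0018), in 10 and 23 cells. Both kept their calls in 16 of 16 other settings. In contrast, 29 of 40 *Car3* UMIs of KO S1 and 19 of 19 *Reln* UMIs of KO S2 lay in 1 cell. Of 45 *2810013P06Rik* UMIs of KO S1, 41 lay in 1 cell. *Apoc4* had 2 and 3 UMIs and *Pik3ip1* 2 and 4 UMIs in KO S1 and S2, and *Fbxo32* and *Slc15a2* completed the list.

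Some genes of resident macrophages were lower in the KO and others were not called. Of 20 perivascular genes, 5 fell and none rose (median −0.76). *Cd209b*, a lectin that binds sugars of microbes, was at 148 and 206 CPM in WT telogen and at 37.4 and 28.8 CPM in the KO (−2.43 ± 0.33, adjusted p = 0.00637). *Cd209g* was at 216 and 223 CPM in WT telogen and at 31.2 and 48.0 CPM in the KO (−2.35 ± 0.28, adjusted p = 0.00449). *Gas6*, the bridge between dying cells and TAM receptors, was at 652 and 704 CPM in WT telogen and at 281 and 167 CPM in the KO (−1.62, adjusted p = 0.0109). *Timd4* fell by 1.97 and the scavenger receptor *Stab1* by 1.18 on the log2 scale. *Lyve1* (131 and 259 CPM), *Cd163* (947 and 580 CPM) and *Mrc1* (1639 and 2098 CPM) of the same list were not called in the KO. *Lyve1* had UMIs in 8 of 33 macrophages of KO S2, 1 of which held 60 of 81, and in 446 of 880 of WT telogen S2, both before thinning. *Cd209b* and *Cd209g* kept their calls in 16 of 16 other settings, and 2 genes of the list were called without WT telogen S1 and 2 without WT telogen S2.

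Of 15 identity genes outside the rule, *Apoe*, *Mertk* and *Cd14* rose and *Aif1*, *Itgam* and *Adgre1* fell. *Aif1*, a calcium-binding protein of macrophages, was at 518 and 415 CPM in WT telogen and at 106 and 25.6 CPM in the KO (−2.99 ± 0.47, adjusted p = 0.01). *Adgre1*, which encodes F4/80, was at 461 and 396 CPM in WT telogen and at 187 and 237 CPM in the KO (−0.96, adjusted p = 0.045) and lost its call in 10 of 17 other settings. *Mertk*, a TAM receptor, was at 21.0 and 40.1 CPM in WT telogen and at 143 and 99.3 CPM in the KO (1.93, adjusted p = 0.0229). Of the genes that chose the cells, given here as a description, *Folr2* was at 674 and 814 CPM in WT telogen, 846 and 481 CPM in anagen and 62.3 and 25.6 CPM in the KO. *Cd209f* was at 618 and 834 CPM in WT telogen and at 87.3 and 103 CPM in the KO, and *C1qb* at 3043 and 3247 CPM against 2275 and 2674 CPM.

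**Figure D4:**
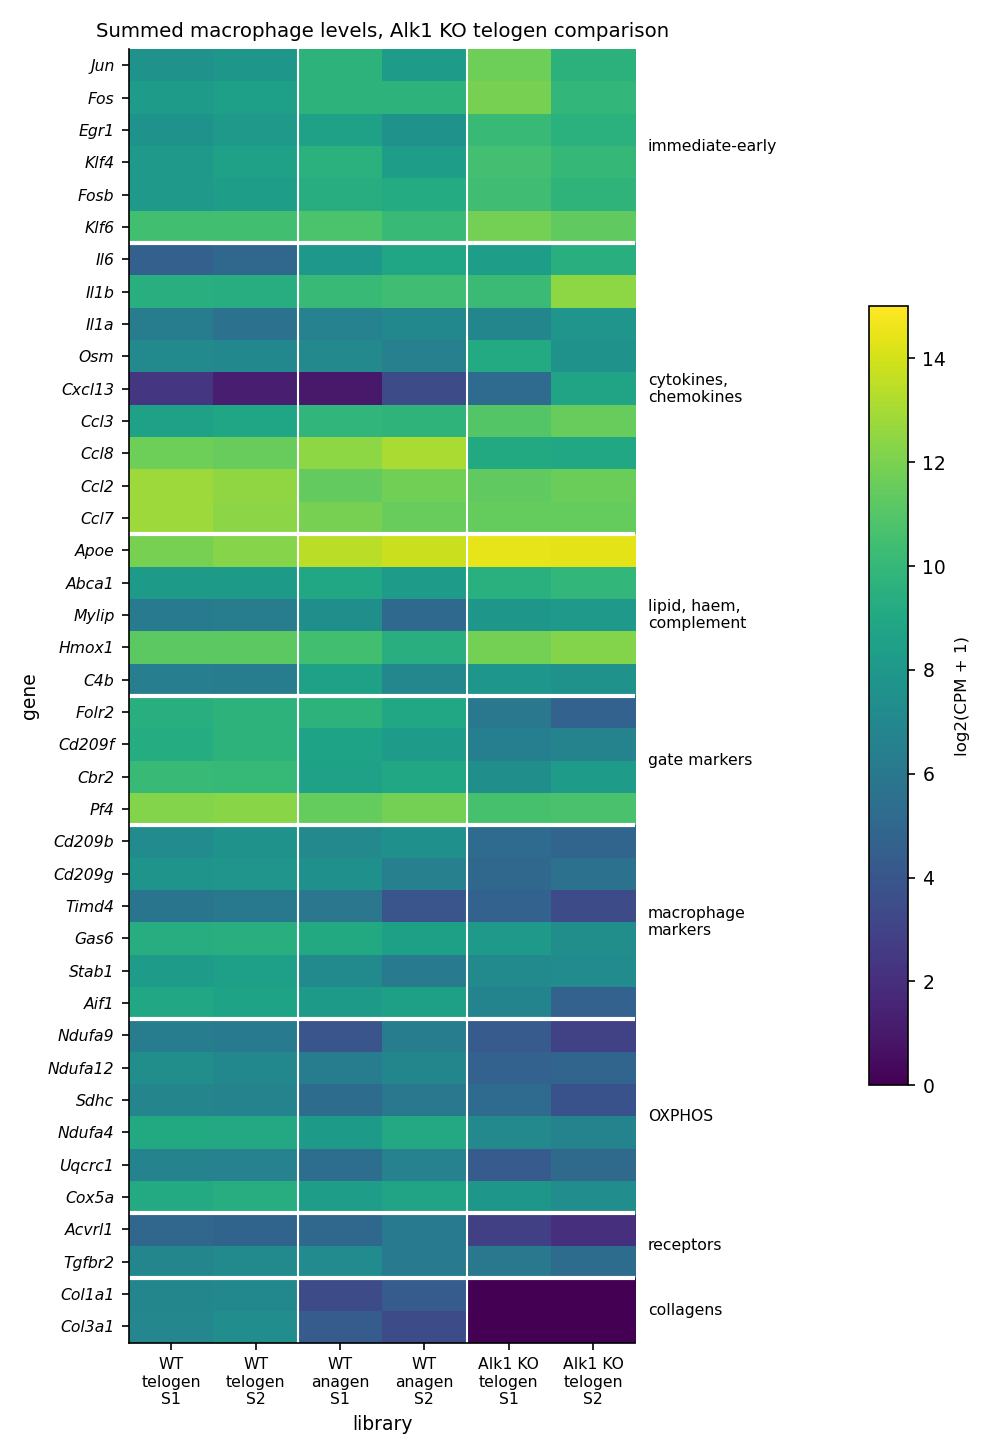
Levels of genes in the Alk1 KO comparison (rows, grouped by list) in each library (columns), as log2(CPM + 1) of summed macrophage UMIs; the 4 gate markers chose the cells. Immediate-early rows are brightest in KO S1 (*Jun*, 3310 CPM), and both KO columns are dark for *Folr2* (62.3 and 25.6 CPM, against 674 and 814 CPM in WT telogen).

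Of 89 tested genes of oxidative phosphorylation, 45 fell in the KO and none rose (median −1.05). *Ndufa12*, of complex I, was at 168 and 129 CPM in WT telogen and at 24.9 and 28.8 CPM in the KO (−2.39 ± 0.33, adjusted p = 0.00664). *Ndufa4* was at 556 and 526 CPM in WT telogen and at 131 and 106 CPM in the KO (−2.18, adjusted p = 0.00374). *Cox5a*, of complex IV, was at 586 and 649 CPM in WT telogen and at 243 and 163 CPM in the KO (−1.61, adjusted p = 0.00876). Both anagen libraries lay between WT telogen and the KO for *Ndufa12* (81.5 and 118 CPM) and *Cox5a* (336 and 432 CPM). The share of UMIs on mitochondrial genes had a median of 4.61% and 4.56% in WT telogen, 3.52% and 2.44% in anagen and 2.78% and 1.76% in KO macrophages, and its part in the result was not tested. Without WT telogen S1, 6 of 79 genes were called, without WT telogen S2, 11 of 79, and at equal cells and depth, 0 of 31. Ribosomal protein genes went the other way in part, with 17 of 81 higher and 1 lower (median 0.10). *Rps27* was at 34.6 and 29.0 CPM in WT telogen and at 542 and 397 CPM in the KO (3.89 ± 0.24, adjusted p = 0.00107). Ribosomal protein genes have near-identical copies that can split their reads, so single values are uncertain.

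Cell cycle genes fell in the KO too, 7 of 24 with none higher (median −2.30, and −1.46 with genes at 0 UMIs at their bound). *Pclaf* was at 0 UMIs in the KO, at least 8.88-fold lower than in WT telogen (adjusted p = 0.00722), and *Ccnb2* at least 7.59-fold lower (adjusted p = 0.0143), with 3 UMIs over both KO libraries as the floor. *Mki67*, at 31.2 and 38.4 CPM in the KO, was not called.

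Of 13 MHC class II genes tested, *H2-DMa*, *H2-Eb1* and *Ifi30* fell and none rose (median −0.71). *H2-DMa* was at 234 and 231 CPM in WT telogen and at 18.7 and 51.2 CPM in the KO (−2.53 ± 0.35, adjusted p = 0.00697). *H2-Eb1* was at 1458 and 1067 CPM in WT telogen and at 355 and 637 CPM in the KO (−1.28, adjusted p = 0.0424) and lost its call in 8 of 17 other settings. *H2-Aa*, at 642 and 1082 CPM in the KO, was not called (adjusted p = 0.0817), though both KO libraries were below both WT telogen libraries. In KO S1, 94 of 103 *H2-Aa* UMIs and 49 of 57 *H2-Eb1* UMIs lay in 1 cell, and in KO S2 180 of 338 and 127 of 199 did. The immunoproteasome genes *Psmb9* (−2.36, adjusted p = 0.00399) and *Psmb8* (−2.27, adjusted p = 0.0149) were the 2 of 16 MHC class I genes called. That share too was near the 10.9% called over all genes. Of 26 interferon-response genes, *Ifi211* rose and *Zbp1* and *Bst2* fell (median −0.47), a share near the 10.9% called over all genes. *Ifnb1*, interferon beta, had UMIs in 35 and 66 cells of WT telogen and 0 UMIs in the KO, at least 5.34-fold lower (adjusted p = 0.019).

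Of 19 genes of the TGF-beta and BMP pathway tested in the KO comparison, *Id3* and *Skil* rose, and *Acvrl1* and *Tgfbr2* fell (median 0.41). *Id3*, a target of BMP signalling, was at 16.5 and 28.4 CPM in WT telogen, 68.6 CPM in KO S1 and 506 CPM in KO S2 (3.84 ± 0.67, adjusted p = 0.0135). *Tgfbr2*, a receptor for TGF-beta, was at 120 and 142 CPM in WT telogen and at 62.3 and 38.4 CPM in the KO (−1.43, adjusted p = 0.0204). Of 12 heat shock genes, *Hspa1b*, *Hsp90ab1* and *Hspd1* fell (median −0.82), and of 30 lysosomal genes, *Hexa*, *Ctsc* and *Gusb* fell (median −0.39), the latter a share near the 10.9% called over all genes. None of the 12 genes of alternative activation tested was called (median 0.28). Among glycolysis and hypoxia genes, 2 of 21 rose (*Bnip3* and *Hk2*) and 2 fell (*Ldha* and *Pgam1*).

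**Figure D5:**
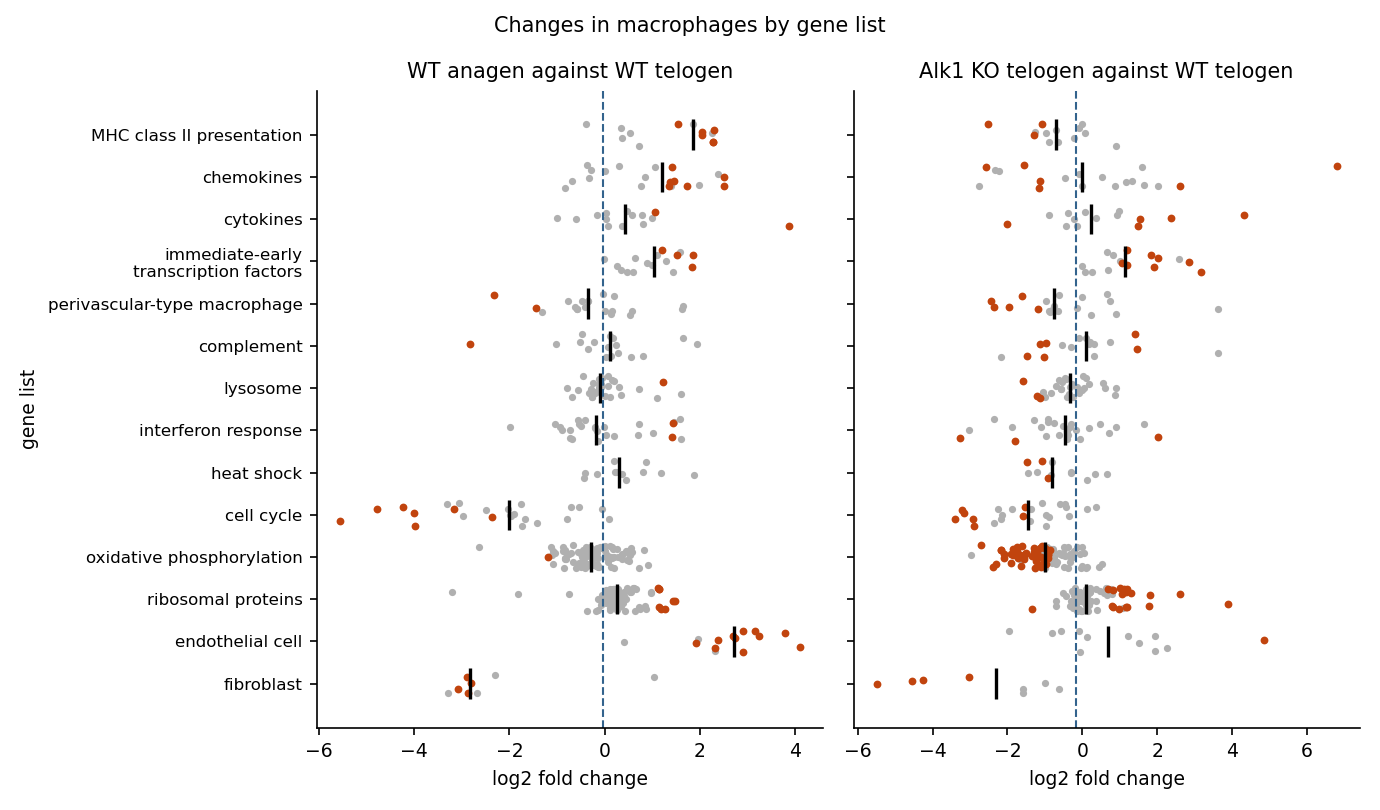
Log2 fold changes of macrophage genes by list in WT anagen (left) and Alk1 KO telogen (right), each against WT telogen; points are genes tested, orange where called, black bars list medians and the dashed line the median of all genes, with genes at 0 UMIs drawn at their bound. MHC class II genes lie to the right at anagen (median 1.86) and oxidative phosphorylation genes to the left in the KO (median −1.004).

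Transcripts of fibroblast genes were lower in the KO macrophages, and their source was not tested. The 10 fibroblast genes summed to 499 and 652 CPM in WT telogen macrophages and to 81.0 and 22.4 CPM in KO macrophages, and in endothelial cells to 4856 and 4843 CPM in WT telogen and 569 and 532 CPM in the KO. Of 8 fibroblast genes tested, *Col3a1* (at least 23.5-fold lower), *Col1a1* (at least 19.2-fold lower), *Col1a2* and *Sparc* fell. In WT telogen S1, 413 of 629 *Col3a1* UMIs and 371 of 601 *Col1a1* UMIs lay in 1 cell, and in S2 505 of 1834 and 399 of 1409 did. Endothelial genes had 1 called of 12, *Mmrn1*, with 68 of 70 UMIs of KO S2 in 1 cell. The 6 adipocyte and muscle genes summed to 367.8 CPM in KO S1, 3.20 CPM in KO S2 and 15.5 and 11.5 CPM in WT telogen, and 27 of 32 UMIs of *Acta1*, the most abundant of them, in KO S1 lay in 1 cell. Its part in the results was not tested. With cells that held UMIs of other types left out, 831 genes were called, and the immediate-early list had 9 higher and the perivascular list 6 lower.

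The KO difference itself differed between macrophages and other myeloid cells for 15 of 10746 genes (0.14%) in edgeR's quasi-likelihood test with the library as a block, 8 of them higher (0.0744%) and 7 lower (0.0651%) in macrophages. Of these calls 53.3% were higher, and with RLE size factors 65.4% of 26 were. *Ccl2* was at 256 and 336 CPM in other myeloid cells of WT telogen and at 21.4 and 38.2 CPM in those of the KO, a larger fall than in macrophages (interaction 2.04, adjusted p = 0.0483). The interaction was 2.02 for *Ccl3* (adjusted p = 0.0457). For *H2-DMa* it was −2.73 (adjusted p = 0.0457), with 976 and 824 CPM in other myeloid cells of WT telogen and 924 and 994 CPM in those of the KO. The interaction was called for 0 of 90 genes of oxidative phosphorylation, 0 of 16 immediate-early genes, 0 of 26 genes of NF-kB feedback and 0 of 15 cytokines. For these lists a KO difference particular to macrophages was thus not shown. The other myeloid cells of KO S1 numbered 14, so the lack of a call does not show equal differences either.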

How the data were processed

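Whole-number UMI counts per gene and cell barcode were deposited by the authors, 1 matrix per library, from 10x Genomics Chromium 3′ libraries. Per the labels, the submitters' processing notes name Cell Ranger 6.0.1, the reference mm10-2020-A and Seurat 4.0. The matrices held 2283 to 6643 barcodes and 10615358 to 43317677 UMIs per library.

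Cells were chosen as given at the start of the report, and the members, gene lists and tests were chosen with earlier results of these data known. Endothelial cells for reference had at least 3 of 4 endothelial genes. Doublets were scored with Scrublet in scanpy 1.11.5. Its automatic threshold removed between 2 and 48 cells per library, so cells in the top 5% of scores were instead left out in an alternative, and the main values include them. Macrophage counts were summed per library and tested with edgeR 4.0.16 (quasi-likelihood F test, TMM, filterByExpr, Benjamini-Hochberg adjustment). Fold changes of genes at 0 UMIs depend on the prior count, and bounds were taken at a floor of 3 UMIs over the group. DESeq2 1.42.0, RLE size factors, other gates and each library left out were alternatives. The choice of cells and the shares of the 8 macrophage genes used all UMIs of a cell, and shares of cells with a UMI of other genes were compared after thinning to 3000 UMIs per cell. Nothing beyond the mouse labels S1 and S2 says how animals were paired, and p-values measure the spread between 2 mice per group.

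Genes were named by a rule: the 12 largest rises and falls among called genes whose libraries did not overlap, up to 3 called genes per list by size, and a fixed set of macrophage genes. Further called members of a list, and values of single genes that explain a count, were added after their values were seen. On simulated counts with 200 changed genes, 66% of 4-fold and 10% of 2-fold changes were recovered for the hair cycle comparison (9651 genes), and 60% and 9% for the genotype comparison (9394 genes). In these simulations 10 and 13 unchanged genes were called as well. For the interaction at anagen, 50% of 4-fold and 10% of 2-fold changes were recovered, with 14 unchanged genes called. For the KO interaction, 33% and 6% were recovered, with 14 unchanged genes called beside the 15 calls in the data. Some results are not reported here.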

Additional observations from a re-analysis of the deposited data

Results flagged for a closer look

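The difference between stages was tested against the same difference in other myeloid cells with edgeR's quasi-likelihood test, and the genes with the largest called interactions are given here on the log2 scale. Values of genes with 0 UMIs in a group depend on the prior count. At anagen the interaction was 15.26 for *9130015A21Rik* (adjusted p = 0.0198), which had macrophage UMIs in anagen S2 only (63.8 CPM). It was 5.86 for *Inhba* (adjusted p = 0.00361), at 5.55 and 8.14 CPM in telogen and 45.4 and 0 CPM in anagen macrophages. It was 5.79 for *Cldn10* (adjusted p = 0.0279), at 19.6 CPM in anagen S1 and 0 in anagen S2. It was −8.75 for *Ube2c* (adjusted p = 0.0428), −8.90 for *Ccnb2* (adjusted p = 0.0427) and −9.05 for *Mfap5* (adjusted p = 0.0377), all 3 at 0 UMIs in anagen macrophages.

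In the KO the interaction was 11.59 for *Marco* (adjusted p = 0.0483), whose KO UMIs lay in 1 macrophage. It was 5.28 for *Cxcl3* (adjusted p = 0.00402), at 150 and 213 CPM in WT telogen and 162 and 1198 CPM in KO macrophages, and at 139 and 211 CPM in WT telogen and 16.0 and 24.5 CPM in KO other myeloid cells. It was 4.72 for *Jaml* (adjusted p = 0.00402), which was at 95.7 and 125 CPM in WT telogen and 48.1 and 112 CPM in KO other myeloid cells. It was −5.01 for *Lyve1* (adjusted p = 0.0283), with other myeloid cells at 0 CPM in KO S1 and 58.6 CPM in KO S2. It was −7.76 for *Ighm* (adjusted p = 0.00402), at 227 and 214 CPM in WT telogen and 0 and 3.20 CPM in KO macrophages. It was −11.23 for *Clec4b1* (adjusted p = 0.0457), at 75.4 and 53.1 CPM in WT telogen and 0 UMIs in KO macrophages.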

How the results depend on the processing

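The difference in macrophage share of −13.45 points at anagen was −7.83 without cells with UMIs of other types and −7.58 among myeloid-gated cells, and ranged from −17.21 to −9.69 with 1 library left out. For the KO, −13.51 points became −7.72 and −3.75, with a range of −17.27 to −9.74. The 294 calls at anagen became 86 with all 6 libraries in 1 fit, 154 with the gate after thinning, 920 without a filter on low counts (53.2% higher, against 81.0%), 4 at equal cells and depth and 48 without cells with UMIs of other types. They became 195 without genes at least 4 times higher in endothelial cells, a setting chosen after seeing the data, and 107 to 1280 with 1 library left out. The 1024 KO calls became 1854 without a filter, 6 at equal cells and depth and 124 to 1888 with 1 library left out. The 73 interactions at anagen became 6 and 140 with at least 3 and at least 5 markers, 219 with the gate after thinning, 347 without a filter, 14 under 5% mitochondrial UMIs, 148 without cells with UMIs of other types, and 28 to 717 with 1 library left out. The 15 KO interactions became 153 with DESeq2, 26 with RLE size factors, 4 and 29 with at least 3 and at least 5 markers, 47 with the gate after thinning, 7 without likely doublets, 231 without a filter, 26 without cells with UMIs of other types, and 22 to 480 with 1 library left out.

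Reversed values were those of *Bmp2* at anagen without anagen S1 (−8.51, against 3.34 without anagen S2), the interactions of *Inhba* with the gate after thinning (−2.25) and of *Cldn10* without anagen S1 (−2.71, against 5.99 without anagen S2), that of *Marco* in the KO with at least 5 markers (−0.66), without cells with UMIs of other types (−0.48) and without KO S1 (−0.64), and that of *Lyve1* in the KO without KO S2 (4.70, against −5.35 without KO S1). The cause was not tested. The mice shared only replicate numbers: the correlation of deviations between same-numbered mice was −0.09 at anagen and −0.03 in the KO, and the fit with a replicate block called 340 and 947 genes. With 1 library left out, a lone library is assumed to vary like the other group. Numbers of macrophages (22 to 33 in anagen S2 and the KO) limit the genes that could be tested.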
